A study of Mus musculus with 30 samples.

Results

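The genes described here are 10 markers of primitive endoderm, among 20300 genes with exonic counts in mouse embryonic stem (ES) cells: Gata6, Gata4, Sox17, Sox7, Foxa2, Hnf4a, Pdgfra, Dab2, Lrp2 and Cubn. They were chosen by name, as known markers, together with every Esrrb binding peak within 50 kb of their transcription starts, 12 of 14559 peaks. RNA was read in 18 libraries of EKOiE-Ccna-Gfp cells, sorted by FACS with a Ccna2-Gfp reporter as early G1, late G1 or G2 cells, kept in doxycycline (DOX) or 24 h after its withdrawal, with 3 libraries in each of the 6 groups. EKOiE is an ES line of strain 129/Ola that lacks endogenous Esrrb and carries an Esrrb transgene induced by DOX, so all RNA groups share that genotype. Esrrb binding was read by ChIP-seq in 12 libraries: asynchronous (interphase) and mitotic cells with DOX (4 libraries each) and 48 h after withdrawal (2 libraries each). In the ChIP-seq, replicate 2 with DOX came from E14Tg2a, a wild-type ES line, in interphase and in mitosis, and all other ChIP-seq libraries from EKOiE. Cells were grown on gelatine in serum with LIF. Whether a group's libraries came from separate cultures is not in the labels, so p-values measure only the spread between these libraries, which may be technical.

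Primitive endoderm is the second lineage of the inner cell mass, next to the epiblast from which ES cells derive. FGF and ERK signalling drives cells towards it, GATA6 and then SOX17, GATA4 and SOX7 install it, and NANOG opposes GATA6 in the epiblast. Its descendants, visceral and parietal endoderm, line the yolk sac, take up maternal proteins through the receptors megalin (Lrp2) and cubilin (Cubn) with the adaptor DAB2, and lay down a thick basement membrane. ES cells in serum with LIF are known to hold a small, changing share of cells that express some of these genes.

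Each RNA library held 11.1 to 31.8 M exonic and 6.1 to 20.8 M intronic counts (M, mega), and the ChIP-seq libraries held 10.7 to 67.5 M reads. Exonic Pou5f1, a defining ES-cell gene, stood between 1249 and 1631 counts per M (CPM) in all 18 libraries, and the primitive endoderm factors Gata6, Gata4, Sox17 and Sox7 each stayed under 2.3 CPM. In bulk libraries, fewer cells of a type and less RNA per cell cannot be told apart. Esrrb itself, the withdrawn gene, went from 317 ± 28.3 to 165 ± 7.19 CPM in late G1 (SD, n = 3), a fall of 0.94 ± 0.14 on the log2 scale (SE, edgeR adjusted p = 0.00385). Without replicate 2 of every group that call was lost (edgeR adjusted p = 0.186). Esrrb lay at -0.58 ± 0.13 in early G1 and at -0.52 ± 0.13 in G2, and neither passed (edgeR adjusted p = 0.12 and 0.0699). With the replicate block Esrrb passed in early G1 too (edgeR adjusted p = 0.0138). CPM values are not divided by transcript length, so levels below are compared between groups and never between genes.

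**Figure D1:**
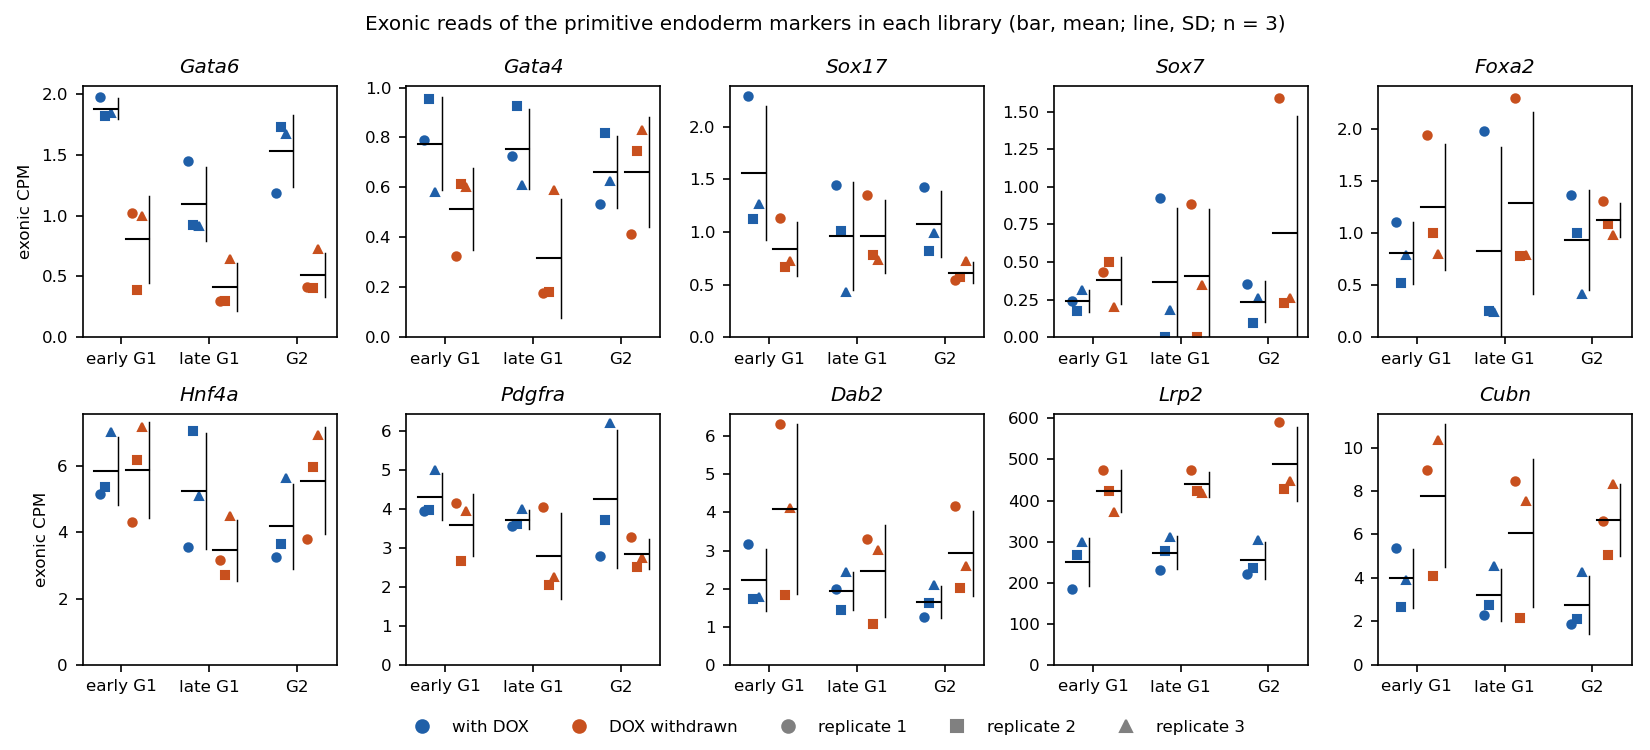
Exonic CPM of each of the 10 genes (y axis, linear, own scale per gene) in each library of the 3 cell-cycle phases (x axis), with DOX in blue and after 24 h of withdrawal in orange; symbols mark the replicate number, bars the mean and vertical lines the SD (n = 3). Lrp2 lies between 185 and 312 CPM with DOX and between 371 and 591 CPM after withdrawal, and Gata6 is lower after withdrawal in every phase.

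The first question was whether these markers responded when DOX was withdrawn, in each phase. Lrp2 rose in G2 and was the only one of the 10 genes to pass over all genes tested, where 0.972% of 14092 genes passed. None of the 10 passed in early G1, where 0.163% of genes passed, or in late G1, where 0.461% passed. At an unadjusted p under 0.05 edgeR gave 3 of 10 in each phase, against 9.63%, 13.1% and 14.4% of all genes tested in early G1, late G1 and G2. The direction was mixed: 6, 5 and 6 of the 10 had a positive change in early G1, late G1 and G2, with medians of 0.27, 0.05 and 0.35 on the log2 scale, while the medians over all genes tested were 0.000242, 0.000587 and -0.0127. The most negative change was that of the transcription factor Gata6 in each phase, and the most positive was that of the endocytic receptor Cubn in early and late G1 and of Sox7 in G2. The plot of log2 changes shows all 30 values.

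**Figure D2:**
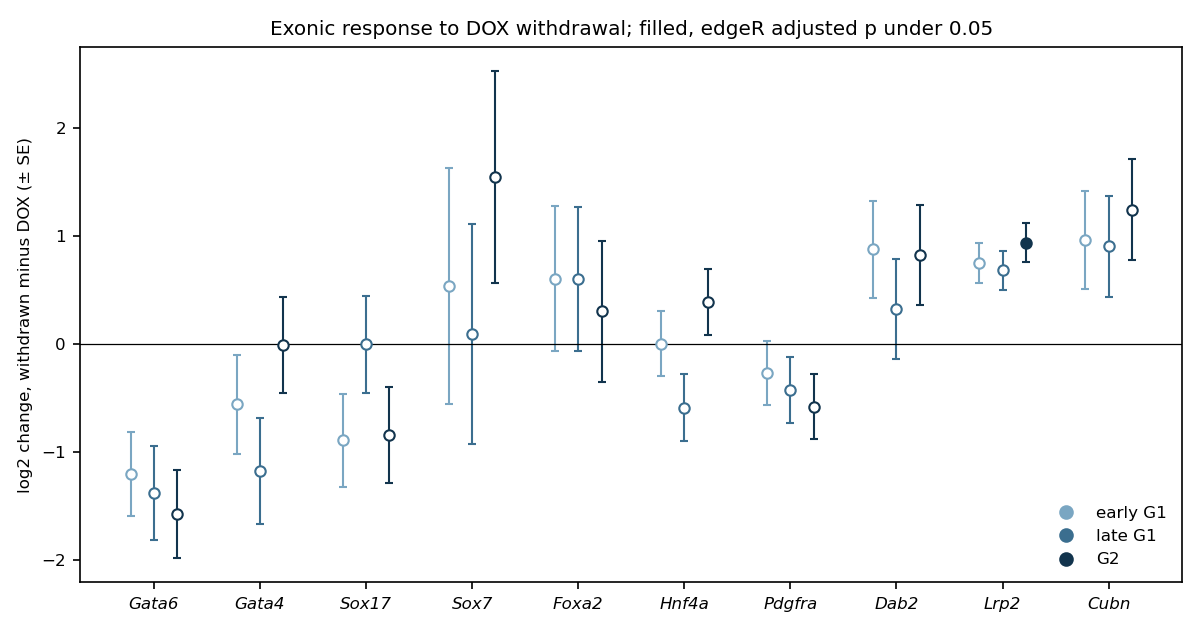
Log2 change of exonic counts after DOX withdrawal (y axis, withdrawn minus DOX, ± SE) for each gene (x axis) in early G1, late G1 and G2, from pale to dark; a filled point passed at an edgeR adjusted p under 0.05. Lrp2 in G2, at 0.94, is the one filled point, and Gata6 is negative in each phase, at -1.20, -1.38 and -1.57.

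Among the transcription factors, Gata6, a zinc-finger factor at the head of the primitive endoderm programme, had the largest negative changes. Replicates 1, 2 and 3 gave 1.98, 1.82 and 1.85 CPM in early G1 with DOX and 1.02, 0.39 and 1.00 after withdrawal. In late G1 they gave 1.45, 0.92 and 0.91 CPM with DOX and 0.29, 0.30 and 0.64 after withdrawal. In G2 they gave 1.19, 1.73 and 1.67 CPM with DOX and 0.41, 0.40 and 0.73 after withdrawal. All 3 withdrawn libraries lay below all 3 DOX libraries in each phase. In single phases this held for 7.66%, 9.02% and 10% of all genes tested in early G1, late G1 and G2. The share for all 3 phases at once was not computed. The Gata6 values rest on 11 to 35 exonic counts per library with DOX and 5 to 25 after withdrawal. The log2 changes were -1.20 ± 0.39, -1.38 ± 0.44 and -1.57 ± 0.41 and missed the threshold (edgeR adjusted p = 0.277, 0.166 and 0.0713).

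Fitted with replicate numbers as a block, Gata6 passed in late G1 (edgeR adjusted p = 0.0471), where 9.04% of all genes passed. It did not pass in early G1, where Lrp2 alone of the 10 passed and 4.03% of all genes did. In G2 Gata6 passed with the block too, with the count over all genes given in the last section. When the counts of the 3 phases were summed per replicate number, Gata6 stood at 1.49 ± 0.012 CPM with DOX and 0.58 ± 0.22 after withdrawal (SD, n = 3). That change of -1.35 ± 0.33 did not pass without the block (edgeR adjusted p = 0.142, with 0.155% of 14847 genes passing) and passed with it (edgeR adjusted p = 0.0143, with 11.7% of genes passing).

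The other transcription factors were read at few counts, and none passed in any phase. Gata4, the GATA factor that acts with and after Gata6, gave 3 to 16 counts per library. Its 3 withdrawn libraries lay below the DOX libraries in late G1, at 0.18, 0.18 and 0.59 against 0.73, 0.92 and 0.61 CPM (log2 -1.17 ± 0.49; edgeR adjusted p = 0.298). The groups overlapped in early G1 (-0.56 ± 0.46) and G2 (-0.01 ± 0.44). Sox17, an SRY-box factor of endoderm, gave 7 to 29 counts. Its withdrawn libraries lay below the DOX libraries in G2, at 0.54, 0.57 and 0.73 against 1.43, 0.82 and 0.99 CPM (-0.83 ± 0.44; edgeR adjusted p = 0.405), and its changes were -0.89 ± 0.43 in early G1 and -0.001 ± 0.45 in late G1.

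Sox7, the SOX factor of parietal endoderm, was spread widely between libraries. It gave 0 counts in replicate 2 of late G1 with and without DOX, which allows up to 0.252 and 0.18 CPM (3 counts, counting error alone). It gave 50 counts (1.59 CPM) in G2 withdrawn replicate 1 and 0 to 15 in the other 17 libraries. Its log2 changes of 0.54 ± 1.09, 0.09 ± 1.02 and 1.55 ± 0.98 had the largest standard errors of the 10 genes. Without G2 withdrawn replicate 1 the G2 change was -0.02.

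Foxa2, a forkhead factor of definitive and visceral endoderm, gave 3 to 41 counts, and replicate 1 was the highest of its group in all 6 groups. Its changes of 0.61 ± 0.67, 0.61 ± 0.67 and 0.31 ± 0.65 lay within their errors. Hnf4a, the nuclear receptor that turns on serum protein genes in visceral endoderm, gave 40 to 179 counts. In replicates 1, 2 and 3 it stood at 5.14, 5.37 and 7.02 CPM in early G1 with DOX and 4.31, 6.18 and 7.17 after withdrawal. In late G1 the values were 3.56, 7.06 and 5.11 CPM with DOX and 3.18, 2.71 and 4.48 after withdrawal, and in G2 3.27, 3.64 and 5.65 with DOX and 3.79, 5.96 and 6.94 after withdrawal. The groups overlapped in every phase, and the changes of 0.01 ± 0.30, -0.59 ± 0.31 and 0.39 ± 0.31 did not pass (edgeR adjusted p = 0.997, 0.452 and 0.596).

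Pdgfra, the receptor for PDGF that marks the primitive endoderm surface and supports its survival, gave 34 to 119 counts. It stood at 4.32 ± 0.60 CPM in early G1 with DOX and 3.60 ± 0.80 after withdrawal, at 3.73 ± 0.25 and 2.79 ± 1.10 in late G1, and at 4.25 ± 1.77 and 2.85 ± 0.39 in G2 (SD, n = 3). The groups overlapped in each phase, and its changes of -0.27 ± 0.30, -0.42 ± 0.31 and -0.58 ± 0.30 did not pass (edgeR adjusted p = 0.84, 0.605 and 0.391).

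The endocytic genes had positive changes in all 3 phases. Lrp2 encodes megalin, a very large receptor that takes up lipoproteins, vitamins and morphogens. In replicates 1, 2 and 3 it stood at 185, 267.5 and 299.7 CPM in early G1 with DOX and at 473.8, 423.4 and 371.1 CPM after withdrawal. In late G1 the values were 230, 278.3 and 312.1 CPM with DOX and 475.1, 424.2 and 419.5 after withdrawal. In G2 they were 222.2, 236.5 and 305.1 CPM with DOX and 590.9, 427.9 and 447.7 after withdrawal. All 9 withdrawn libraries lay above all 9 DOX libraries, across phases as well as within them. The share of all genes tested that were separated in this way was not computed. The phases share replicate numbers, so the 9 libraries of a state cannot be taken as 9 independent replicates. Across phases, same-numbered exonic libraries deviated from their group means with correlations from -0.0347 to 0.72. Replicate 1 was the lowest of its group with DOX in each phase and the highest after withdrawal in each phase, so that the gap was widest there.

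The rise of Lrp2 in G2 was 0.94 ± 0.18 on the log2 scale (edgeR adjusted p = 0.0191). In early G1 Lrp2 lay at 0.75 ± 0.18 and in late G1 at 0.68 ± 0.18, which missed the threshold (edgeR adjusted p = 0.126 and 0.108). With the replicate block Lrp2 passed in both (edgeR adjusted p = 0.0185 and 0.0186). The G2 call was lost without DOX replicate 1 (edgeR adjusted p = 0.106) or 2 (0.111), without withdrawn replicate 1 (0.12) or 3 (0.0524), without replicate 2 of every group (0.383), and in a fit of the 6 G2 libraries alone (0.079). The change stayed between 0.79 and 1.11 in the fits that left out 1 library or every replicate 2. Over the summed phases Lrp2 stood at 259 ± 47.2 CPM with DOX and 456 ± 60.8 after withdrawal, a change of 0.82 ± 0.16 (edgeR adjusted p = 0.0902, and 0.00829 with the replicate block).

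Lrp2 spans 162 kb, and other long genes of high level also lay above 0. The 31 genes tested that span at least 100 kb, whose mean log2 CPM was 8 or more, had median changes of 0.32, 0.36 and 0.38 in early G1, late G1 and G2, bounds chosen after the values were seen. In each phase 30 of the 31 had a positive change, against 50.1%, 50.1% and 48.3% of all genes tested. Over all 14092 genes tested, the log10 span and the change had a Pearson r across genes of 0.108, 0.104 and 0.0857, and genes are not independent replicates. Counting Lrp2 itself, 2, 3 and 3 of the 31 lay at or above its change. The part of gene length or RNA quality in the Lrp2 result was not tested.

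Cubn encodes cubilin, the vitamin B12 and albumin receptor that works with megalin. In replicates 1, 2 and 3 it stood at 5.38, 2.69 and 3.91 CPM in early G1 with DOX and 8.95, 4.07 and 10.3 after withdrawal. In late G1 the values were 2.31, 2.77 and 4.56 CPM with DOX and 8.47, 2.17 and 7.53 after withdrawal. In G2 they were 1.90, 2.09 and 4.29 CPM with DOX and 6.62, 5.04 and 8.34 after withdrawal, where the groups did not overlap. Replicate 2 was the lowest withdrawn library in each phase, and in late G1 it lay below all DOX libraries. The changes of 0.96 ± 0.46, 0.91 ± 0.47 and 1.25 ± 0.47 did not pass (edgeR adjusted p = 0.517, 0.427 and 0.213). Over the summed phases the change was 1.07 ± 0.32 (edgeR adjusted p = 0.202, and 0.00607 with the replicate block).

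Dab2, the clathrin adaptor that binds the tails of both receptors, was likewise lowest in replicate 2 in 5 of the 6 groups. It stood at 2.23 ± 0.81 CPM in early G1 with DOX and 4.09 ± 2.23 after withdrawal, at 1.95 ± 0.50 and 2.46 ± 1.20 in late G1, and at 1.66 ± 0.42 and 2.92 ± 1.12 in G2 (SD, n = 3). The groups overlapped in each phase, and the changes of 0.88 ± 0.45, 0.33 ± 0.46 and 0.83 ± 0.46 did not pass (edgeR adjusted p = 0.563, 0.822 and 0.423).

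Counted over the 10 genes, the groups did not overlap upwards for Lrp2 alone in early and late G1 and for Lrp2 and Cubn in G2, where 6.78%, 8.14% and 8.96% of all genes tested lay wholly above DOX. They did not overlap downwards for Gata6 in early G1, for Gata6 and Gata4 in late G1 and for Gata6 and Sox17 in G2, where 7.66%, 9.02% and 10% of all genes lay wholly below.

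The bases before the starts of the 3 endocytic genes, which had positive changes together, are shown to set their promoters side by side. RefSeq promoter windows (GRCm38.p6) were matched by symbol for 6 of the 10 genes: Lrp2, Cubn, Dab2, Foxa2, Hnf4a and Pdgfra. The windows hold the 250 bases before the start, 5′ to 3′ on the gene's strand, at chr2:69586030-69586279 for Lrp2 (minus strand), chr2:13491877-13492126 for Cubn (minus strand) and chr15:6299539-6299788 for Dab2 (plus strand, the first of 2 listed starts). Capitals mark a GATA motif.
Lrp2: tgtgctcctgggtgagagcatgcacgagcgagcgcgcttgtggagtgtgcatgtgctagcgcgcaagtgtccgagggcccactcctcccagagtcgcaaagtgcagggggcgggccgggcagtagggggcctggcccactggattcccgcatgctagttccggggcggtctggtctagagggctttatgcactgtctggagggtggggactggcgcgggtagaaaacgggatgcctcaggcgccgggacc
Cubn: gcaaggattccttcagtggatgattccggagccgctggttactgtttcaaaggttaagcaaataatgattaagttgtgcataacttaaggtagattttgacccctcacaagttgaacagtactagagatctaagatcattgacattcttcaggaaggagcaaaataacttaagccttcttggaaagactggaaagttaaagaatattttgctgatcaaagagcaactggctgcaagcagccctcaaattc
Dab2: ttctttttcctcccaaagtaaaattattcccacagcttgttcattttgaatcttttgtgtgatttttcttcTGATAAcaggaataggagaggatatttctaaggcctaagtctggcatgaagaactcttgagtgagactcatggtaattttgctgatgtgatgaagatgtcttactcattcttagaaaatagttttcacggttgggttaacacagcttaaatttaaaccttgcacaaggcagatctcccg

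The 3 windows differ in base composition. That of Lrp2 is 66.4% G and C with 18 CpG pairs, and 14.8% of 32851 promoter windows have at least that share of G and C. Those of Cubn and Dab2 are 39.6% and 36.8% G and C with 2 CpG pairs each, against a median of 52.4% and 6 pairs over all windows. The window of the second Dab2 start, not printed, is 60% G and C with 17 CpG pairs, so the low share holds for the first Dab2 start only. The motifs searched, on both strands, were TCAAGGTCA for Esrrb and AAGGTCA, its core, which overlap, AGATAA and TGATAA for GATA factors, ACAATG for SOX factors, TGTTTAC and TGTTTGC for FOXA and CAAAGTCC for HNF4A. TGATAA lies in the window of 1 of 2 Dab2 starts, the printed one, starting 179 bases before the start, and in 7.94% of all windows. AGATAA lies in the window of 1 of 2 Hnf4a starts and 1 of 3 Foxa2 starts, and in 9.99% of all windows. None of the 10 windows of these 6 genes holds TCAAGGTCA (0.387% of all windows) or AAGGTCA (4.08%), nor the SOX (10.7%), FOXA (3.17% and 4.3%) or HNF4A (1.2%) letters.

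Intronic reads, which can come from unspliced RNA, were used to ask whether the exonic differences were seen there too. None of the 7 genes tested passed in early G1, late G1 or G2, where 0%, 0.0142% and 0.0142% of 14075 genes passed. Introns of Sox17, Sox7 and Foxa2, with 0 to 5 counts per library, were below the filter on low counts. Intronic Lrp2 stood at 56, 62.4 and 69.6 CPM in early G1 with DOX and 77.8, 91.4 and 73.6 after withdrawal in replicates 1, 2 and 3. In late G1 it stood at 62.4, 59.8 and 62 CPM with DOX and 81.4, 80.6 and 90.4 after withdrawal, and in G2 at 58.8, 82.3 and 73.9 with DOX and 102.2, 85.3 and 86.3 after withdrawal. The withdrawn libraries lay above the DOX libraries in each phase, as in 5.48%, 5.27% and 5.29% of all genes tested in early G1, late G1 and G2.

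The intronic changes of Lrp2 were 0.37 ± 0.13, 0.45 ± 0.13 and 0.35 ± 0.13 (edgeR adjusted p = 0.747, 0.503 and 0.53), next to exonic changes of 0.75, 0.68 and 0.94. Over the summed phases the intronic change was 0.40 ± 0.11 (edgeR adjusted p = 0.507, with 0% of 14966 genes passing). It passed with the replicate block (edgeR adjusted p = 0.0174, with 3.48% of genes passing). The difference between exonic and intronic change was not tested. Intronic Gata6, read at 3 to 32 counts per library, had changes of -0.70 ± 0.47, -0.62 ± 0.48 and -0.73 ± 0.44, negative as in exons. Its withdrawn libraries lay wholly below in G2 alone, as in 5.24% of genes.

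**Figure D3:**
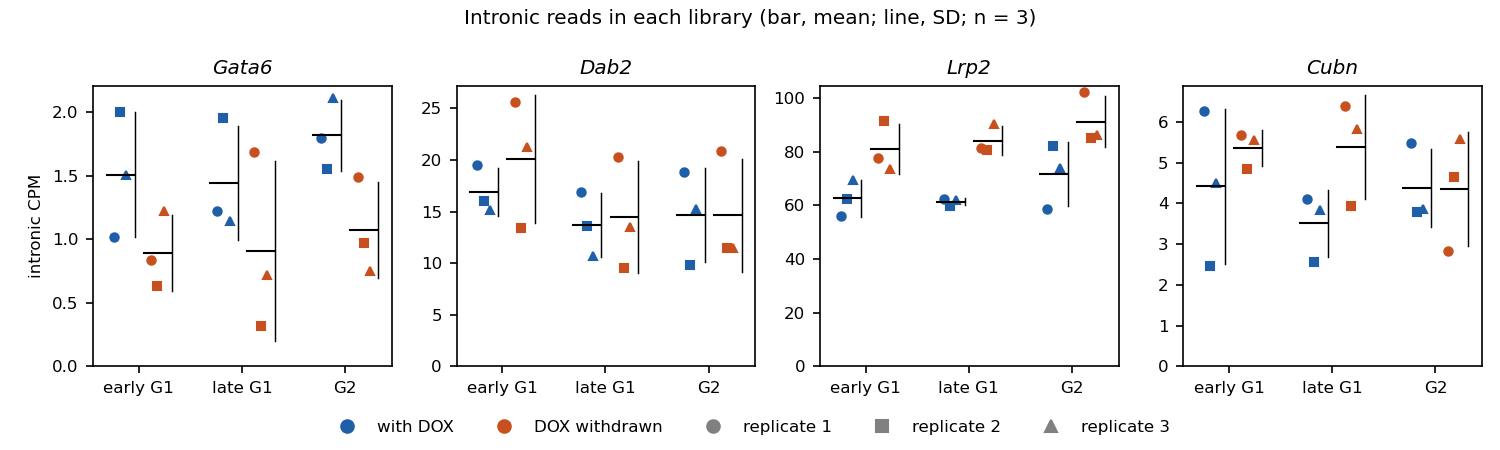
Intronic CPM (y axis, linear) of Gata6, Dab2, Lrp2 and Cubn in each library by phase (x axis), with DOX in blue and after withdrawal in orange; symbols mark replicates, bars means and lines SDs (n = 3). Intronic Lrp2 lies between 56 and 82.3 CPM with DOX and between 73.6 and 102.2 CPM after withdrawal, while the groups of Dab2 and Cubn overlap in each phase.

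Intronic Cubn was at 4.41 ± 1.90, 3.51 ± 0.83 and 4.38 ± 0.96 CPM with DOX and 5.36 ± 0.45, 5.38 ± 1.29 and 4.36 ± 1.40 after withdrawal in early G1, late G1 and G2 (SD, n = 3). Its intronic changes were 0.28 ± 0.31, 0.60 ± 0.32 and -0.04 ± 0.31, next to exonic changes of 0.96, 0.91 and 1.25, which did not pass in the planned fit either. The difference between the exonic and intronic changes of Cubn was not tested. Intronic Dab2 had 57 to 449 counts per library, more than in exons, where it had 17 to 131. Its intronic changes were 0.26 ± 0.30, 0.08 ± 0.31 and -0.002 ± 0.31.

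Next, levels were compared between phases, with DOX and after withdrawal. None of the 10 genes passed in any of the 6 contrasts between phases, where 0% of genes passed in each, and none in the 3 differences of the withdrawal response between phases (0% of genes in each). At an unadjusted p under 0.05, edgeR gave 0 of 10 in each contrast with DOX, where 0.965% of all genes did so between late and early G1, 2.26% between G2 and early G1 and 1.23% between G2 and late G1. After withdrawal it gave 2 for late against early G1 (Gata6 at -0.94 ± 0.43 and Hnf4a at -0.77 ± 0.31), 1 when G2 was set against late G1 (Hnf4a at 0.67 ± 0.31) and 0 when it was set against early G1, where 1.31%, 2.53% and 4.17% of all genes did so in that order. Among the differences of response it gave 1, Hnf4a at 0.98 ± 0.44 for G2 minus late G1 (0.511% of all genes), and 0 for the other 2 (0.255% for late minus early G1 and 0.454% for G2 minus early G1). All these shares over all genes lay below the share of 0.05 expected by chance at that threshold. The planned, unpaired fit was thus conservative here, and the lack of calls does not show equal levels between phases. DESeq2 and the replicate block also called 0 of the 10 in each of these 9 contrasts. The share of all genes passing in those fits is not given here, so nothing is read from these counts. For Lrp2 the withdrawal response differed by 0.19 ± 0.26 between G2 and early G1 and by 0.26 ± 0.26 between G2 and late G1. The call in G2 alone is therefore not a shown difference between phases. By their group means with DOX, Gata6 levels were ordered early G1 (1.88 ± 0.085 CPM), G2 (1.53 ± 0.30) and late G1 (1.10 ± 0.31; SD, n = 3), and no neighbours in that order passed. Lrp2 levels with DOX ran from 250.7 ± 59.2 CPM in early G1 through 254.6 ± 44.3 in G2 to 273.5 ± 41.3 in late G1, with no neighbours apart by more than their spread (SD, n = 3).

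For the 3 genes whose mean log2 CPM was 2 or more, the genes most alike in pattern were found by Pearson correlation of log2 CPM over the 18 libraries, among 10676 genes at that level. For Lrp2 they were Ctnnd1 (r = 0.975), Huwe1 (0.975) and Dhx9 (0.969). For Cubn they were Peg10 (0.928), Npc1 (0.924) and Pxdn (0.919), and for Hnf4a Saysd1 (0.843), Hlcs (0.813) and Kcnk5 (0.783). These are descriptions over libraries that share DOX state, replicate number and depth.

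Further endoderm genes were read from lists set by role. Among 8 other transcription factors of endoderm, 6 were tested and 0 passed in any phase; Sall4, a zinc-finger factor that ES cells share, was closest at 0.29 ± 0.17, 0.49 ± 0.17 and 0.48 ± 0.17. Among 12 signals and receptors 11 were tested and 0 passed. Pdgfc, a ligand of Pdgfra, was closest at 0.61 ± 0.19, 0.64 ± 0.19 and 0.52 ± 0.19 (edgeR adjusted p = 0.247, 0.132 and 0.187), and Fgfr3 lay at -0.54, -0.70 and -0.70. All 10 endocytic partners were tested and 0 passed. Their medians of -0.18, -0.20 and -0.13 were negative, next to positive changes of Lrp2, Cubn and Dab2. Myo6, the motor that carries endocytic vesicles, lay at -0.54, -0.43 and -0.47, the chloride transporter Clcn5 at 0.39, 0.54 and 0.42 and the cubilin partner Amn at -1.24, -0.62 and -1.20. Lrpap1, the chaperone of megalin, lay at -0.27, -0.38 and -0.27, and Lrp8, a related receptor, at -0.46, -0.50 and -0.90.

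All 13 basement membrane and matrix genes were tested and 0 passed, and 12, 11 and 9 had a positive change. Fn1, fibronectin, went from 375 ± 19.9, 378 ± 17.8 and 326 ± 56.6 CPM to 585 ± 183, 641 ± 205 and 604 ± 190 in early G1, late G1 and G2 (SD, n = 3), with changes of 0.64, 0.76 and 0.89 (edgeR adjusted p = 0.383, 0.163 and 0.0834). Lamc1, a laminin chain, lay at 0.61, 0.66 and 0.92, and Serpinh1 at -0.36, -0.32 and -0.36. Of 18 visceral and parietal endoderm products 11 were tested. Trf, transferrin, fell in late G1 from 8.13 ± 1.02 to 3.63 ± 0.99 CPM and in G2 from 8.45 ± 0.78 to 3.24 ± 0.24 (SD, n = 3), by 1.17 ± 0.20 and 1.38 ± 0.20 on the log2 scale (edgeR adjusted p = 0.0172 and 0.0026). In early G1 its change was -0.95 ± 0.20 (edgeR adjusted p = 0.0705, and 0.00475 with the replicate block). Trf lost its late G1 call without DOX replicate 1 (edgeR adjusted p = 0.0577) or 3 (0.0761), or without withdrawn replicate 1 (0.0576) or 3 (0.103). Without replicate 2 of every group neither Trf call was kept (edgeR adjusted p = 0.19 in late G1 and 0.144 in G2). It was the only product to pass, and it went against the direction of Lrp2. Apoe lay at -0.44, -0.45 and -0.39 and Srgn at -0.68, -0.24 and -0.68, while 6, 6 and 4 of the 11 had a positive change. Cer1 and Ttr, defining visceral endoderm genes, had at most 3 counts in every library.

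Marker lists of other cells were read beside these results. Of 10 ES-cell markers Tfcp2l1, a naive-state factor, fell in all 3 phases (-0.90 ± 0.16, -0.80 ± 0.16 and -1.05 ± 0.16; edgeR adjusted p = 0.0394, 0.0409 and 0.0047) and Esrrb in late G1. Leaving out 1 of 6 libraries ended the Tfcp2l1 call in 5 of 6 fits in early G1 (highest edgeR adjusted p = 0.224, without DOX replicate 2), in all 6 in late G1 (0.181, without withdrawn replicate 3) and without withdrawn replicate 1 in G2 (0.0637). The summed level of the 10 markers ran from 5050 to 6490 CPM with DOX and from 4260 to 5990 after withdrawal. None of the mesendoderm (5 of 10 tested), trophoblast (6 of 9) or fibroblast and feeder markers (3 of 9) passed. Their summed levels ran from 5.29 to 9.34, 22.9 to 44.1 and 11.7 to 17.8 CPM with DOX, and from 5.52 to 12, 19.3 to 44.1 and 9.27 to 16.3 after withdrawal. Cer1, Lhx1, Elf5, Tpbpa and Postn had at most 3 counts in every library. Sox17, Foxa2 and Pdgfra belong to these lists too, and the part of other cell types in the results above was not tested.

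The ChIP-seq was used to ask where Esrrb bound near these genes, and whether it did so in mitosis. Of the 10 genes 7 had at least 1 of the authors' peaks within 50 kb of the start, as did 51.2% of all 20300 genes. Lrp2 had 4 peaks, as at least 4 were found near 10.9% of all genes, and Gata6 had 3, as at least 3 were found near 18% of all genes. Sox17, Sox7, Pdgfra, Foxa2 and Hnf4a had 1 each. Gata4, Dab2 and Cubn had none, with the nearest peak 102, 368 and 80 kb away. The map of peak distances shows that 2 Gata6 peaks, with centres at -2.23 and -0.73 kb from the start, were the closest by centre, followed by the Lrp2 peak at 3.07 kb.

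**Figure D4:**
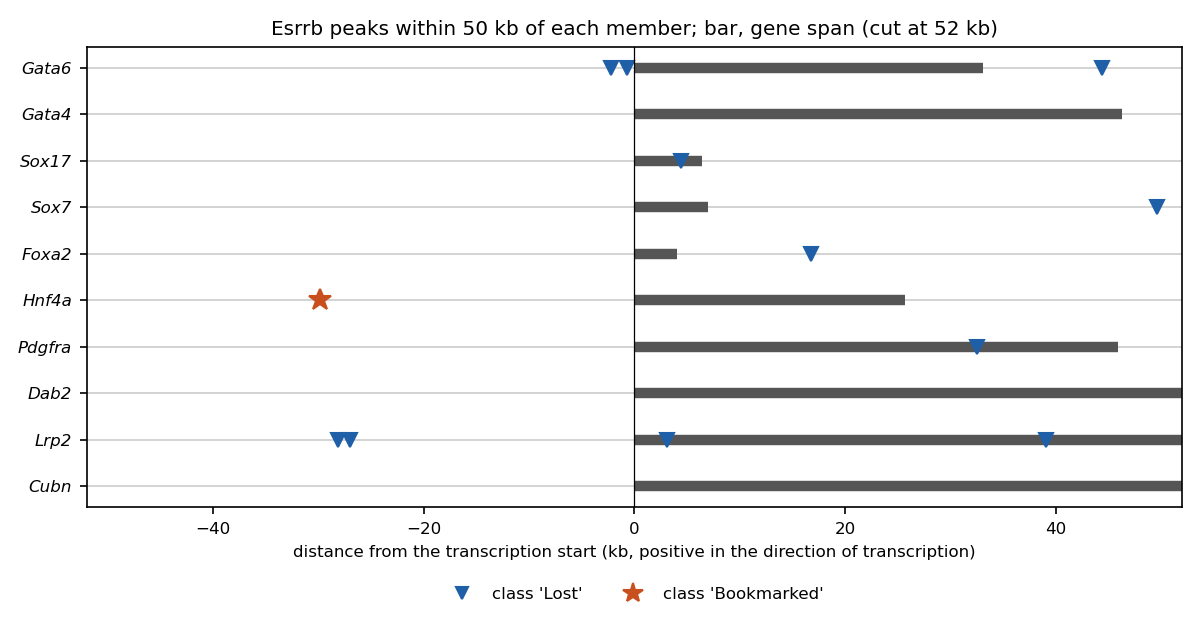
Position of each Esrrb peak centre relative to the gene's transcription start (x axis, kb, positive in the direction of transcription) for each of the 10 genes (y axis); grey bars show the gene span, blue triangles peaks classed Lost by the authors and the orange star the 1 peak classed Bookmarked. Lrp2 has 4 peaks, Gata6 has 3, and Gata4, Dab2 and Cubn have none.

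In mm9, as the files place them, the Lrp2 peaks lie on chromosome 2 at 69420601 to 69421500 (centre 3.07 kb into the gene), 69384301 to 69385800 (39.1 kb into the gene), 69450901 to 69451350 and 69451951 to 69452550 (centres at -27.0 and -28.1 kb). The Pdgfra peak lies inside the gene on chromosome 5 at 75580501 to 75581250, and that of Sox17 inside the gene on chromosome 1 at 4482601 to 4483350. The Foxa2 peak lies beyond the gene on chromosome 2 at 147855601 to 147856350, and that of Sox7 beyond the gene on chromosome 14 at 64611751 to 64612650. The Hnf4a peak lies on chromosome 2 at 163342801 to 163343400, before the gene span used here, with its centre at -29.8 kb from the start. RefSeq lists 2 Hnf4a starts, 40.3 kb apart. If the start used is the downstream one, the peak lies inside the longer transcript, and that match was not analysed here. The third Gata6 peak lies 44.4 kb downstream of its start, beyond the gene. Whether exons or introns hold the inner peaks was not analysed here.

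Peak heights are log2 values of reads per kb and per M reads of the library. With DOX in interphase the tallest was the Lrp2 peak at -27.0 kb, at 2.24, 2.95, 2.93 and 4.39 in replicates 1 to 4, taller than 95.6% of all peaks or equal to them. The Gata6 peak at -0.7 kb stood at 1.69, 2.65, 2.68 and 3.96 (percentile 89.4). The Lrp2 peak at 39.1 kb, at 0.26, 0.93, 0.57 and 0.75, was the lowest (percentile 10.3). Replicate 4 was the highest library at 10 of the 12 peaks. The share of a library's reads that fell in all peaks also varied, from 3.11% in replicate 1 to 9.83% in replicate 4, and was 1.11% to 1.29% in mitosis with DOX.

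After 48 h without DOX all 12 peaks fell in interphase, as did 99.6% of all peaks (limma adjusted p from 6.79e-07 to 0.00104). The peaks were called on these libraries, so this direction is no independent evidence. At the 8 peaks with reads in both withdrawn libraries the log2 difference, DOX minus withdrawn, ran from 2.76 ± 0.74 at the Lrp2 peak at 39.1 kb to 4.56 ± 0.61 at that at -27.0 kb. At the other 4, among them the Gata6 peak at -0.7 kb, withdrawn replicate 1 held 0 reads. Empty peaks carry a height worth 0.9 reads in the deposited values, so that the fitted differences there, 4.40 to 5.04, depend on that fill-in value. In mitosis, 3 peaks (Sox17, Foxa2 and Lrp2 at -28.1 kb) were empty in withdrawn replicate 1. In interphase the reads left in both withdrawn interphase libraries ran from 0 to 22 per peak.

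**Figure D5:**
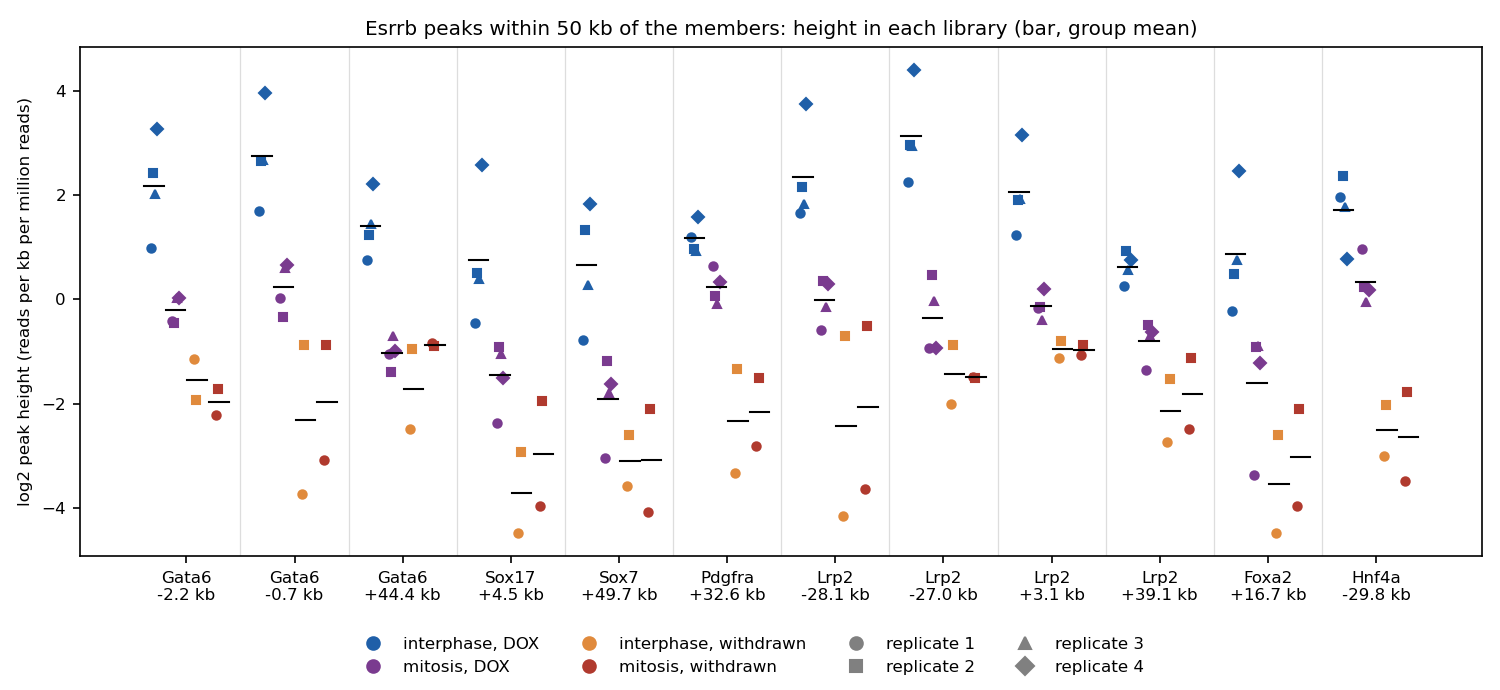
Height of the 12 Esrrb peaks near the genes (y axis, log2 reads per kb per M reads; x axis, peaks by gene and distance) in each ChIP-seq library: interphase and mitosis with DOX (n = 4 each) and after withdrawal (n = 2 each); symbols mark replicates and bars group means. Interphase with DOX lies on top at all 12 peaks by its mean, and the Hnf4a peak is the one where interphase replicate 4 is lowest and overlaps with mitosis.

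In mitosis with DOX, all 12 peaks had a lower mean height than in interphase with DOX. Of these 11 passed, against 91.4% of all peaks called in either direction (limma, 4 against 4 libraries). Over all peaks the median difference was -2.26 and 0.728% were positive, so this direction is not particular to these 12 peaks. At the Lrp2 peak at -27.0 kb, mitosis stood at -0.92, 0.47, -0.02 and -0.93 in replicates 1 to 4, a difference of -3.48 ± 0.50 from interphase (limma adjusted p = 8.38e-06). At the Gata6 peaks at -2.2 and -0.7 kb the differences were -2.37 ± 0.50 and -2.51 ± 0.59 (limma adjusted p = 0.000252 and 0.000668). At the Lrp2 peak at 3.1 kb it was -2.18 ± 0.46 (limma adjusted p = 0.000245). The Pdgfra peak was the one that did not pass (-0.93 ± 0.55; limma adjusted p = 0.104), although its mitotic heights of 0.64, 0.07, -0.09 and 0.33 all lay below the interphase heights of 1.20, 0.97, 0.93 and 1.58. The Hnf4a peak fell by 1.38 ± 0.54 (limma adjusted p = 0.0194), from 1.96, 2.36, 1.78 and 0.78 in interphase to 0.97, 0.25, -0.04 and 0.18 in mitosis, and the groups overlapped.

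Some of these calls rested on single libraries. Without interphase replicate 4 the Sox17 and Foxa2 peaks no longer passed (limma adjusted p = 0.0922 and 0.054), and without interphase replicate 2 (0.0715) or mitosis replicate 3 (0.0588) the Hnf4a peak did not. The Lrp2 peak at 39.1 kb passed (-1.42 ± 0.61; limma adjusted p = 0.0308) but not without interphase replicate 2 or 3 or without any 1 of the 4 mitosis libraries (0.051 to 0.0935). Without both E14Tg2a libraries this peak (0.105) and that of Hnf4a (0.132) did not pass.

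The authors class 1980 of the 14559 peaks, 13.6%, as Bookmarked and the rest as Lost. Of the 12 peaks near these genes 1, that of Hnf4a, is classed Bookmarked and 11 are classed Lost. The classes were made from these libraries. In mitosis, heights with DOX passed above those without it at 4 of the 12 peaks, against 22.4% of all peaks: Hnf4a by 2.96 ± 0.66 (limma adjusted p = 0.00724), Pdgfra by 2.39 ± 0.67 (0.0186), and Gata6 at -0.7 and -2.2 kb by 2.20 ± 0.72 (0.0343) and 1.77 ± 0.61 (0.0409). Pdgfra and Gata6 passed here although their peaks are classed Lost. The Hnf4a peak held 64, 48, 29 and 23 reads in mitosis with DOX and 1 and 10 reads after withdrawal. These 4 calls rested on withdrawn replicate 1, at 18.6 M reads: without it 0 of the 12 peaks, and 0 of all peaks, passed (limma adjusted p = 0.429 for Hnf4a, 0.52 for Pdgfra, 0.767 and 0.566 for Gata6). On reads per peak recovered from the heights, edgeR also called 0 of the 12 and 0 of all peaks (edgeR adjusted p = 0.127 for Hnf4a). In the inducible line alone 1 of the 12 peaks passed, and the share over all peaks in that fit is not given here. The wild-type line has no withdrawn library, so cell line is mixed into this contrast. The Pdgfra call was also lost without mitosis DOX replicate 4 (0.0566), the Gata6 call at -0.7 kb without replicate 3 (0.063) or 4 (0.0781), and that at -2.2 kb without any 1 of the 4 (0.0519 to 0.0994).

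At the Gata6 peak at 44.4 kb mitosis with DOX, at -1.03 ± 0.28 (SD, n = 4), was not above mitosis without it, at -0.83 and -0.90. The Lrp2 peaks at -28.1, -27.0, 3.1 and 39.1 kb differed in mitosis by 2.05 ± 0.82, 1.14 ± 0.61, 0.84 ± 0.56 and 1.01 ± 0.74 and did not pass (limma adjusted p = 0.0661, 0.156, 0.247 and 0.288). Beside these values, Lrp2, with 4 peaks, had higher RNA levels after withdrawal, Gata6, with 3, had lower ones, and Cubn and Dab2, with none within 50 kb, had changes of the same sign as Lrp2. ChIP-seq and RNA-seq were made at different times after withdrawal, and their relation was not tested.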

How the data were processed

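Exonic and intronic read counts per gene (deposited by the authors as whole counts on mm9) covered 18 RNA-seq libraries, made with a TruSeq stranded mRNA kit per the labels' protocols. The submitters' processing notes name Bowtie, CASAVA 1.8, DESeq2 and mm9, with no roles. Esrrb ChIP-seq heights were deposited by the authors as log2 reads per kb of peak per M reads over 1 common peak list, with each peak's class. Columns headed noco per the file headers, a word the labels do not use, were taken for mitosis libraries by replicate number. The 2377 intronic lines that name no gene were left out.

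Counts were scaled by TMM, filtered with filterByExpr and tested in edgeR 4.0.16 (R 4.3.3; quasi-likelihood, 6 group means, Benjamini-Hochberg over all genes, threshold 0.05). Residual degrees of freedom were 12, and 4 for counts summed over phases. CPM are counts per M of a library's TMM-scaled total with no length term. A peak with no reads has a deposited height worth 0.9 reads. Because the peak table holds log2 values, heights were tested with limma 3.58.1 (12 libraries, 4 group means), and reads per peak were recovered from the size of 1 read as an alternative, where 100% of values came out whole within 0.05 reads. DESeq2 1.42.0, RLE scaling, no filter, each phase alone, a replicate block, other peak windows and leaving out libraries were alternatives. Leaving out replicate 2 everywhere was added after seeing the data. The tests were tried on simulated data.

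Replicate numbers are in the labels. Same-numbered libraries deviated together, with correlations of 0.124 to 0.486 in exons of early G1, 0.154 to 0.371 in late G1 and 0.153 to 0.487 in summed phases, and of 0.25 to 0.321 in introns of summed phases, all over 0.1. The planned fits did not use this pairing, so their p-values are unpaired, and the replicate block was an alternative. In exons of G2 these correlations ran from 0.0997 to 0.352, so not all were over 0.1. Pairing was weak for replicate 2. In exons of early G1 its pair had 0.124, while DOX replicate 3 and withdrawn replicate 2, of different numbers, had 0.237. Other pairs of different numbers in that phase ran down to -0.418.

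The genes named are the 10 markers, those passing in the wider lists and otherwise some of the 3 with the smallest p in each list, with values in every library for genes of mean log2 CPM of at least 2. Gata6 was added to these after its values were seen. The members and lists were chosen with earlier results of these data known. No sequence is printed for Gata6.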

Additional observations from a re-analysis of the deposited data

Results flagged for a closer look

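At the Foxa2 peak 16.7 kb downstream of the start, mitosis with DOX replicate 1 stood apart from the other 3 libraries of its group. Its height was -3.36 on the log2 scale, from 4 reads, and the next lowest was -1.21. The gap was 0.874 of the group's range, above Dixon's 95% critical value for 4 libraries. Of 24 groups of 4 heights examined this was the only one past the limit, and chance alone passes about 1 in 20 groups.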

How the results depend on the processing

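The number of the 10 genes past the threshold moved with the model. With the replicate block it was 1 in early G1, 2 in late G1, 3 in G2 (Gata6, Lrp2 and Cubn), 3 over summed phases and 1 in summed introns, and with DESeq2 1, 1, 2 and 3 in exons. The block raised the calls over all genes in early G1, late G1 and G2 to 568, 1274 and 1580 (summed exons 1734; introns 67, 89 and 228), DESeq2 to 129, 332 and 449 (summed exons 523), and each phase alone gave 6, 2 and 25. G2 alone called 0 of the 10, and leaving out 1 G2 library gave 0 to 1. Without replicate 2 everywhere 0, 0 and 3 genes of all passed. In mitosis, DOX against withdrawn, the 12 peaks gave 0 on recovered reads, 1 in the inducible line alone and 0 to 5 with 1 library left out. Shares over all peaks are given above for recovered reads and without withdrawn replicate 1, and not for the other fits. With the replicate block in the ChIP-seq the Pdgfra peak passed in mitosis against interphase (limma adjusted p = 0.0178), but same-numbered libraries did not all deviate together. In exons of G2, Esrrb passed with the replicate block (edgeR adjusted p = 0.0123). Windows of 20 and 100 kb held 5 and 23 peaks. Values near 0 changed sign. Hnf4a in early G1 was -0.00398 with the block. Sox17 in late G1 was 0.0287 with the block, 0.00501 with RLE, 0.00516 with DESeq2, 0.0213 unfiltered and 0.0157 with the phase alone. Gata4 in G2 was 0.00202 with RLE, 0.00349 with DESeq2 and 0.0238 unfiltered, and intronic Dab2 in G2 0.0046 unfiltered. Without replicate 2 everywhere, Hnf4a in early G1 was -0.067, Sox17 in late G1 0.171 and Gata4 in G2 0.0769. With 1 library left out, exonic ranges were -0.0586 to 0.755 (Foxa2, G2), -0.0931 to 2.33 (Foxa2, late G1), -0.209 to 0.291 (Gata4, G2), -0.152 to 0.186 (Hnf4a, early G1), -0.356 to 0.441 (Sox17, late G1), -0.0218 to 1.92 (Sox7, G2) and -1.03 to 1.90 (Sox7, late G1). Intronic ranges were -0.280 to 0.217 (Cubn, G2), -0.371 to 0.217 (Dab2, G2), -0.243 to 0.296 (Dab2, late G1) and -1.37 to 0.00742 (Gata6, late G1). The cause of these shifts was not tested. Depth limits Gata6, Gata4, Sox17, Sox7 and Foxa2, each at 50 counts or fewer per library.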
